A study of Rattus norvegicus with 35 samples.

Results

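Vomeronasal members of the rat gene set were examined in the olfactory epithelium, the sheet of the nasal cavity that carries the neurons of the main sense of smell. The members were the probes whose gene name began with V1r, V2r, Vom1r or Vom2r, or whose description contained the word vomeronasal. This rule found 21 of the 41012 probes of the array that were not controls, 9 of them by gene name and 12 by the description alone. They were sorted as 13 type 1 receptor (V1R) entries, 7 type 2 receptors (V2R) and 1 secretory protein. The V1R entries include TC553353, a transcript contig that is not an annotated receptor gene. A RefSeq symbol could be paired with 13 of them, and each was measured by a single spot.

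The vomeronasal organ is a separate tube at the base of the nasal septum, and its sensory neurons detect pheromones and other social or predator cues. V1R proteins sit on neurons that use the G protein subunit Gnai2, and V2R proteins on neurons that use Gnao1. Both kinds of neuron depend on the cation channel Trpc2. The main epithelium instead detects odorants through olfactory receptors (Olr genes), the G protein subunit Gnal and a cyclic nucleotide-gated channel.

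RNA came from 27 Brown Norway rats. The 19 newborn pups were 3 to 5 days old, of sex not known, and belonged to litters L1 (4 pups), L2, L3 and L4 (5 pups each), with 1 side of the nose and 1 array per pup. The 4 adult rats (9 weeks) and the 4 old rats (22 months, held in the animal house from a young age) were males, and each gave 2 arrays, A and B, for the left and right sides, which makes 35 arrays. No allele, agent or odor distinguished the groups, and the comparisons of age were therefore newborn, adult and old. Adult arrays had scan days of their own and an earlier software release, so that adult age and these settings cannot be told apart. The third scan day held L1 together with all old arrays, and the other litters were split between the fourth day and the fifth.

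A level is the background-subtracted intensity divided by the median intensity of its array, so that a level of 1 is that of the median probe. Median intensities were 42.1 to 87.7 on newborn, 81.6 to 162 on adult and 37.1 to 55.3 on old arrays. A spot was above background when the scanner software flagged it as positive and significant and as well above background. The level that best separated such spots from the others lay between 0.178 and 0.427 on the 35 arrays, and levels under it have no order. Following the study, a transcript was expressed when above background on 3 arrays of a litter or on 6 of the 8 adult or old arrays. The tissue label fitted its markers, because Omp, the olfactory marker protein of mature olfactory neurons, was above background on all 35 arrays, with a median level of 37.6 on newborn, 192 on adult and 315 on old arrays.

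The probes of the members on which the results turn are given here, 5′ to 3′, as printed on the array and in lower case, each with its position in build rn3.
TC553353, chr8:57097212-57097271, minus strand: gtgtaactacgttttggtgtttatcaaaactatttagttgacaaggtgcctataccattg
LOC685945, chr4:124759601-124759660, plus strand: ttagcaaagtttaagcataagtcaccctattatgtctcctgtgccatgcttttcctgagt
LOC681880, chrUn:65025607-65025666, minus strand: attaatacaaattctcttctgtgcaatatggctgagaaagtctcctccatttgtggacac
LOC689670, chr14:1300648-1300707, minus strand: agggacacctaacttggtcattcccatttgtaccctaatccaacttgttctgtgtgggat
LOC689435, chr14:262150-262209, minus strand: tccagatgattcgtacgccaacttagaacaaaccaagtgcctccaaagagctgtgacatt
LOC687446, chr3:5310133-5310421, plus strand: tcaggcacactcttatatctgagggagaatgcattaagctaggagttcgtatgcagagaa
Receptors of these families are close copies of one another, and the likeness of their probes bears on which gene a spot reports. No pair of members shared a run of 15 bases, but 6 members shared runs of 15 to 19 bases with probes outside the rule. Among these, LOC689403 had 35 of 39 overlapping bases in common with RGD1562697_predicted (Vom2r6), and LOC689060 had 42 of 57 in common with LOC286983 (Vom2r40), whose signal passed the background on each of the 35 arrays. The members whose probes were most alike are shown next, with the bases identical between partners in capitals.
V1rb9, chr4:124287636-124287695: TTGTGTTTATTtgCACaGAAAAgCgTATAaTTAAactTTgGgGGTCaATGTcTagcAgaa
Vnr1, chr4:124720676-124720735: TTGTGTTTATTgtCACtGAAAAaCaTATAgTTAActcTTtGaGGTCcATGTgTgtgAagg
LOC689403, chr14:56975-57034: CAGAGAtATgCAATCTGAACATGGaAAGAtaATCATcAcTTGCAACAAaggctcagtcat
LOC689072, chr14:1044157-1044216: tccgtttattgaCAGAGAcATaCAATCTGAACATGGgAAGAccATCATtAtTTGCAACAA
V1rb9 and Vnr1 had 41 of 60 bases in common, and LOC689403 and LOC689072 had 41 of the 48 bases over which their probes overlap.

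Most vomeronasal members gave no regular signal at any age. Of the 21 members, 16 were above background on at least 1 of the 35 arrays, but 11 of these only on 1 to 5 arrays. By the thresholds of the study, 5 members were expressed in at least 1 of the 6 groups (4 litters, adult and old). They were the V1R entries TC553353 and LOC685945, the V2R genes LOC689670 and LOC681880, and the secretory protein gene LOC687446. Across all probes, 70.5% were expressed in at least 1 group, and 68.35% of the 1112 Olr probes were.

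By age, 3 members were expressed in at least 1 litter, 2 in adult and 3 in old rats. Litter L1 expressed 3 members (TC553353, LOC685945 and LOC689670), L3 and L4 each expressed 2 (TC553353 and LOC685945), and L2 expressed TC553353 alone. Adult rats expressed TC553353 and LOC687446, so that 1 V1R entry and no annotated receptor gene among the members passed the threshold in adults. Old rats expressed TC553353, LOC685945 and LOC681880. These counts depend on letter case in the rule: TC553353 and LOC687446 have Vomeronasal with a capital in their descriptions, and without them 3 members were expressed in at least 1 group, 2 in at least 1 litter, none of the members in adult and 2 in old rats. Of all probes, L1 expressed 66.7%, L2 62.9%, L3 64.8% and L4 65.4%, and the share was 63.9% for adult and 62.6% for old rats. None of the 9 members found by gene name, all V1R genes, was expressed in any group.

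Counted on any array, 14 members were above background among the 19 newborn arrays, 9 among the 8 adult arrays and 7 among the 8 old arrays. Of all probes, 77.6%, 74.9% and 72.56% were above background on at least 1 of these arrays, and 83.57% on at least 1 of the 35, beside 76.19% of the members. On at least 1 adult or old array, 52.38% of the members and 79.05% of all probes were above background. Of the members, 5 were above background on newborn arrays alone, namely LOC689670, LOC689435, LOC681856, LOC689072 and V1rb7. LOC689072 and V1rb7 were so on 1 array each and LOC681856 on 2, and the newborn arrays were the most numerous. V1rb9 was above background on adult arrays alone, and 4 members (TC553353, LOC685945, LOC687446 and Vnr1) at all 3 ages. No member was above background on old arrays alone. The members V1rc16, V1rd15, V1rb5_predicted, V1rg6 and LOC689403 were above background on none of the 35 arrays.

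**Figure D1:**
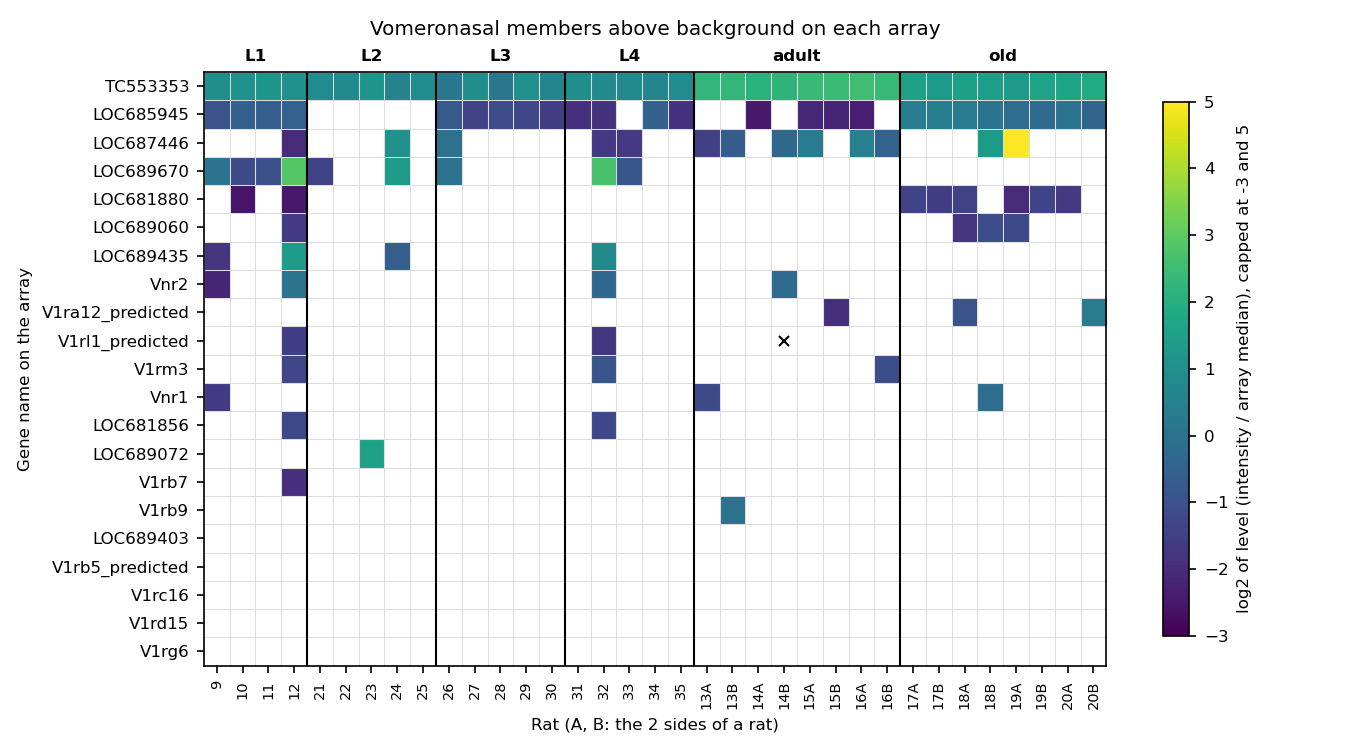
Each row is a member and each column an array, grouped by litter, adult and old rats; a colored cell is a spot above background, with its level on a log2 scale, and a white cell a spot that was not (the cross marks a spot that was above background but not uniform, so without a level). TC553353 is colored on all 35 arrays, LOC685945 on 25, and most other members on few arrays, with the columns of rats 12 and 32 the fullest.

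The V1R entries come first. TC553353 was the single member above background on all 35 arrays. It is an assembled transcript contig and not an annotated receptor gene: its description rests on a match to 6% of the V1R protein V1RH15. The other V1R members lay on chromosomes 1, 4 and 7, and this probe on the minus strand of chromosome 8, with a distance of 11.82 kb to the nearest probe of Cul5 and 21.44 kb to that of Acat1. Whether it reports a vomeronasal receptor at all was not tested.

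Its lowest, median and highest levels were 1.12, 1.84 and 2.32 in the 19 pups. They were 4.35, 5.16 and 5.87 on adult arrays and 2.49, 2.95 and 3.74 on old arrays, and every adult array of the first scan day was above those of the second. Rats of the 3 ages did not overlap, in the order newborn, old, adult. Of all 28928 probes tested, 36.9% likewise showed no overlap between newborn and adult rats, 30.8% none between newborn and old, and 55.5% none between adult and old.

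In limma's moderated test, with p values adjusted by the Benjamini-Hochberg method over all probes tested and called under 0.01, TC553353 was 2.83-fold lower in newborn than in adult rats (log2 difference -1.50, SE 0.13, adjusted p = 2.57e-10). It was 1.64-fold lower in newborn than in old rats (log2 -0.72, SE 0.13, adjusted p = 2.86e-05) and 1.72-fold higher in adult than in old rats (log2 0.79, SE 0.16, adjusted p = 0.000271). Within their shared scan day, the log2 difference of L1 from old rats was -0.49 (SE 0.10, adjusted p = 0.00351). L1 and old rats did not overlap for TC553353 on that day, as for 55.4% of all probes tested.

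LOC685945, which RefSeq names Vom1r104, lies with 6 other members between positions 124159652 and 124759660 of chromosome 4, and its description likens it to a V1R of the a group. It was above background on 25 arrays. These were 4 of 4 arrays of L1, none of 5 of L2, 5 of 5 of L3 and 4 of 5 of L4, with 4 of 8 adult and 8 of 8 old arrays. Its levels in L1 were 0.52, 0.69, 0.67 and 0.71. Pups of L2 were at 0.13, 0.16, 0.15, 0.31 and 0.17. Those of L3 were at 0.60, 0.38, 0.46, 0.41 and 0.34, and L4 gave 0.27, 0.28, 0.19, 0.69 and 0.28.

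The litters thus differed among themselves, with every pup of L1 above every pup of L2. Adult arrays were at 0.13 (lowest), 0.19 (median) and 0.23 (highest), close to the level at which spots count as above background. Old arrays were at 0.75, 1.04 and 1.34, above every pup and every adult array.

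In the fit, LOC685945 was 2.97-fold lower in newborn than in old rats (log2 -1.57, SE 0.23, adjusted p = 1.71e-06) and 5.40-fold lower in adult than in old rats (log2 -2.43, SE 0.29, adjusted p = 2.38e-07). It was 1.82-fold higher in newborn than in adult rats (log2 0.86, SE 0.23, adjusted p = 0.00157), a call that was lost with litter means as the newborn replicates (adjusted p = 0.0341), with another background correction (normexp, adjusted p = 0.0137) and without adult rat 14 (adjusted p = 0.0113). Newborn and adult rats overlapped. The folds against adult rats rest on a level that was above background on 4 of 8 adult arrays, and levels on the other 4 are not well above background. The newborn mean likewise takes in levels that were not above background. It was above background in 13 of 19 pups, and in none of the 5 pups of L2.

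The level of LOC685945 also moved with scan day. Among pups of L2, L3 and L4, those scanned on the fifth day (rats 24, 26, 28 and 34) were at 0.31, 0.60, 0.46 and 0.69. Rats 26, 28 and 34 were each above all littermates of the fourth day. Rat 24 had the highest value of L2, but no pup of L2 was above background, so the order there has no meaning. The test that follows takes in these levels of L2. With the litter in the model, the fifth day was 1.88-fold higher (log2 0.91, SE 0.17, adjusted p = 0.00537), and 3.5% of all probes passed this test (2.36% higher and 1.14% lower on the fifth day). Within the third day, which L1 shared with the old rats, the log2 difference of L1 from old rats was -0.69 (SE 0.16, adjusted p = 0.00702), against -1.57 for all litters. That contrast leaves out the other litters as well as the other days, so litter and day cannot be told apart in it. The part of scan day in the other age differences was not tested. TC553353 went the other way, with a log2 difference of -0.48 (SE 0.10, adjusted p = 0.0123) on the fifth day.

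**Figure D2:**
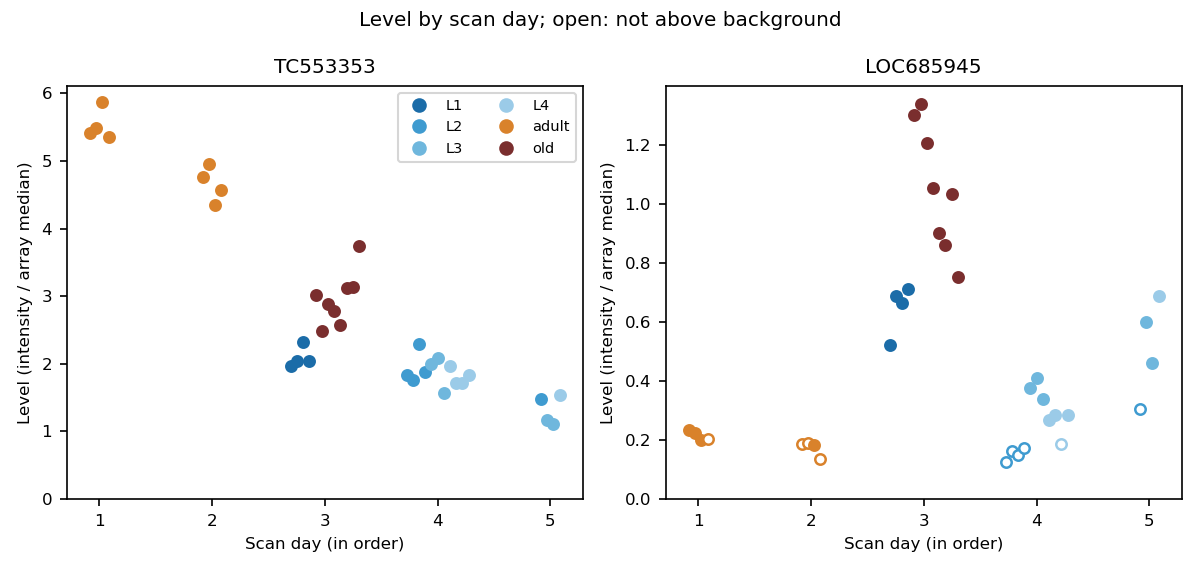
Level (intensity over the array median) of TC553353 and LOC685945 against the order of the scan day, a point per array, colored by group, open where the spot was not above background. Adult arrays stand alone on days 1 and 2, L1 and old arrays share day 3, and for LOC685945 the pups of day 5 lie above their littermates of day 4. No pup of L2 was above background for LOC685945.

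The other V1R members were above background on at most 4 arrays each, and those named here were chosen after their values were seen. Vnr2 (Vom1r102) was above background in rats 9 (0.22), 12 (1.06) and 32 (0.80) and on array 14B (0.87). V1ra12_predicted (Vom1r100) was so on arrays 15B (0.27), 18A (0.52) and 20B (1.24), Vnr1 (Vom1r103) in rat 9 (0.32) and on arrays 13A (0.44) and 18B (0.92), and V1rb9 (Vom1r97) on array 13B (0.98). V1rm3 was above background in rats 12 (0.40) and 32 (0.55) and on array 16B (0.47), and V1rl1_predicted (Vom1r30) in rats 12 (0.35) and 32 (0.31) and on array 14B, where its spot was not uniform and gave no level. In each of these adult and old rats, the other side was not above background for the same gene.

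Members were often seen on 1 side of a rat. Leaving TC553353 and LOC685945 aside, 18 receptor members gave 6 cases in adult rats, each on 1 side, and 9 cases in old rats, 6 of them on 1 side. With LOC685945 kept, 8 of 9 cases in adult rats (88.9%) and 6 of 13 in old rats (46.2%) were on 1 side. For all probes, 8.0% of such cases in adult and 7.4% in old rats were on 1 side, and for Olr probes 22.8% and 12.3%. Spots near the background pass the flag on 1 of 2 arrays more easily than bright ones, and the share was not compared at matched levels.

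**Figure D3:**
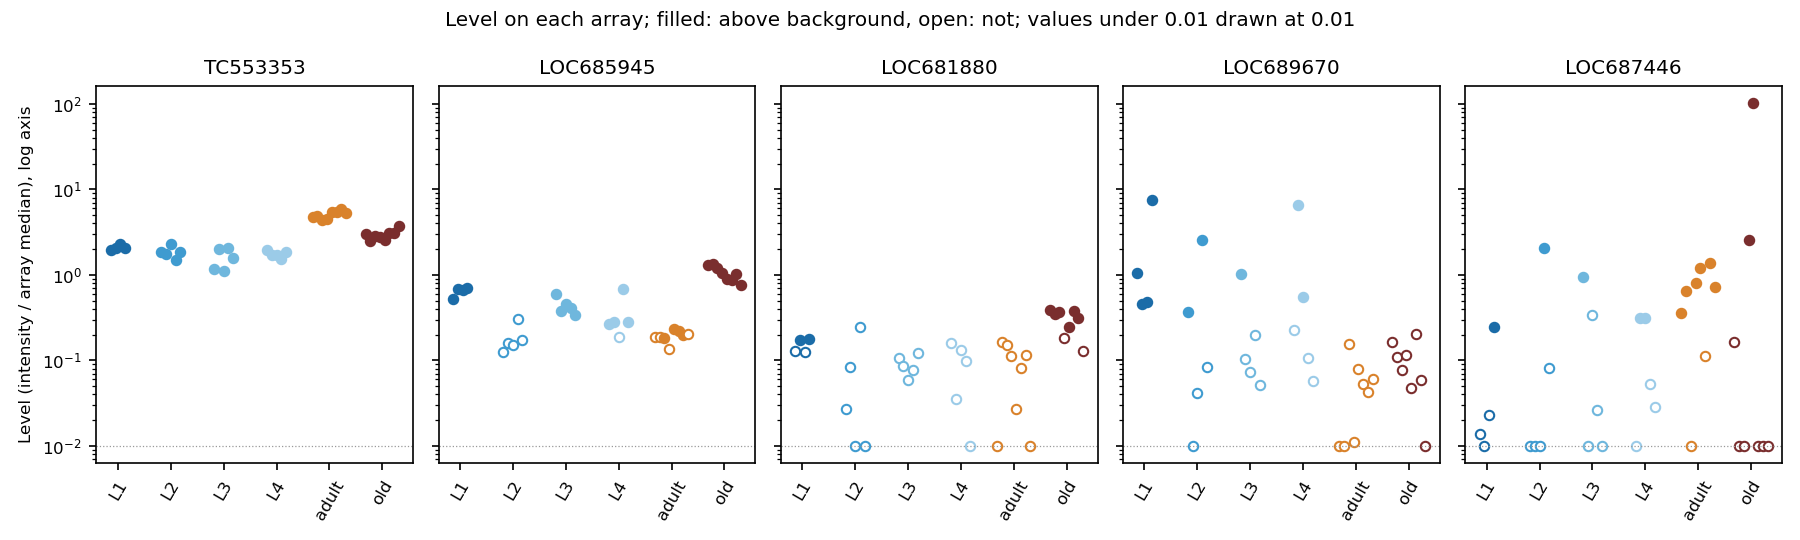
Level on each array, on a log axis, of the 5 members expressed in at least 1 group, with arrays in the order of rats within L1, L2, L3, L4, adult and old; filled points are above background and values under 0.01 are drawn at 0.01. TC553353 separates the 3 ages, LOC685945 is highest in old rats, and LOC689670 (0.46 to 7.43 in L1) and LOC687446 (under 0 to 102 on old arrays) spread widely within a group.

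Of the 7 V2R members, 6 lie at the start of chromosome 14, and LOC681880 in unplaced sequence. LOC689670 (Vom2r73), described as similar to vomeronasal 2 receptor 1, was above background in 9 pups and on no adult or old array. In L1 its levels were 1.04, 0.46, 0.48 and 7.43 in rats 9, 10, 11 and 12. In L2 they were 0.37, at or under 0, 0.04, 2.54 and 0.08 in rats 21 to 25.

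In L3 they were 1.02, 0.10, 0.07, 0.20 and 0.05 in rats 26 to 30, and in L4 0.23, 6.55, 0.56, 0.11 and 0.06 in rats 31 to 35. Adult arrays did not exceed 0.16 and old arrays 0.21. The level was thus high in rats 12 and 32, moderate in rats 24, 9 and 26, and near or under the background in most other pups of the same litters.

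The mean over the 4 litters was at least 1.52-fold above adult and at least 1.32-fold above old rats. The bound was set against the lowest signal above background on each adult or old array. It is a bound on that mean and not on each litter. LOC689670 was above background in 4 of 4 pups of L1, 2 of 5 of L2, 1 of 5 of L3 and 2 of 5 of L4. The fit gave log2 differences of 3.11 (SE 1.12, adjusted p = 0.0165) and 1.99 (SE 1.12, adjusted p = 0.12), so that neither comparison was called. Within the shared scan day, every L1 pup was above background and no old array was. There L1 was at least 5.10-fold above old rats by the same bound. LOC689670 entered the fit only because it was expressed in L1, so its height in L1 was part of the selection. The contrast of L1 with old rats, and the part of L1 in the newborn mean, are therefore a description and no test.

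LOC689435, also similar to vomeronasal 2 receptor 1 and chosen here after its values were seen, followed the same pups. It was above background in rats 12 (2.65), 32 (1.73), 24 (0.67) and 9 (0.30) alone. LOC681856, LOC689072 and LOC689060 were likewise chosen after their values were seen. LOC681856 was above background in rats 12 (0.43) and 32 (0.41), and no other array exceeded 0.18. LOC689072 (Vom2r72) was an exception, at 3.00 in rat 23 and not above background on the other 34 arrays.

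LOC681880, described as similar to vomeronasal 2 receptor 4, was above background on 6 of 8 old arrays, in 2 pups of L1 (rats 10 and 12, 0.17 and 0.18) and on no adult array. Old arrays were at 0.13 (lowest), 0.33 (median) and 0.39 (highest), adult arrays at 0.01, 0.10 and 0.16, and pups between under 0 and 0.24. All these levels are close to the background. It was at least 1.42-fold higher in old than in adult rats (fit log2 -2.35 for adult minus old, SE 0.82, adjusted p = 0.0172, not called). Newborn against old rats was called (log2 -1.93, SE 0.64, adjusted p = 0.0098). However, 28 of the 42 alternatives tried lost this call, among them leaving out any 1 of the 4 old rats. LOC681880 entered the test through old rats alone, so a higher level there was part of its selection, and the call is no independent support. LOC689060 (Vom2r71) was likewise above background on 3 old arrays (0.29, 0.47 and 0.44) and in rat 12 (0.32).

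Of the 5 members tested, TC553353 and LOC685945 were called in all 3 comparisons and LOC681880 was called once, which makes 2 calls between newborn and adult rats, 3 between newborn and old and 2 between adult and old. Of all 28928 probes tested, 63.5%, 58.7% and 44.6% were called. The 3 members called between newborn and old rats were all lower in newborn, as were 30.2% of all probes tested. For LOC681880, which entered the test through old rats alone, this direction was part of the selection. Over all tested probes the median log2 difference was 0.16 between newborn and adult, -0.03 between newborn and old, and -0.17 between adult and old rats. Each of these comparisons shares its groups with the others, and the 16 members that were not tested passed the threshold of expression in no group.

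The number of members above background differed most between pups. It was 6, 4, 3 and 12 in L1 (rats 9 to 12). Rats 21 to 25 of L2 had 2, 1, 2, 4 and 1 members, rats 26 to 30 of L3 had 4, 2, 2, 2 and 2, and rats 31 to 35 of L4 had 2, 9, 3, 2 and 2. Adult arrays held 2 to 4 members and old arrays 3 to 5. Rats 12 and 32 thus exceeded every other array, and for 6 members, of which 3 were V2R genes, both were above background and held the 2 highest levels among the 19 pups. With 1 level (0.427) in place of each array's own flag, rat 12 had 6 members, rat 32 had 5 and array 18B also had 5, and no array had more. Of all probes, 69.19% were above background in rat 12, the highest share of the 35 arrays, and 65.44% in rat 32. Pups ranged from 59.72% to 69.19%, adult arrays from 61.8% to 68.46% and old arrays from 61.64% to 66.88%. The lowest shares were those of rats 28 (59.72%), 23 (60.27%) and 24 (60.37%).

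**Figure D4:**
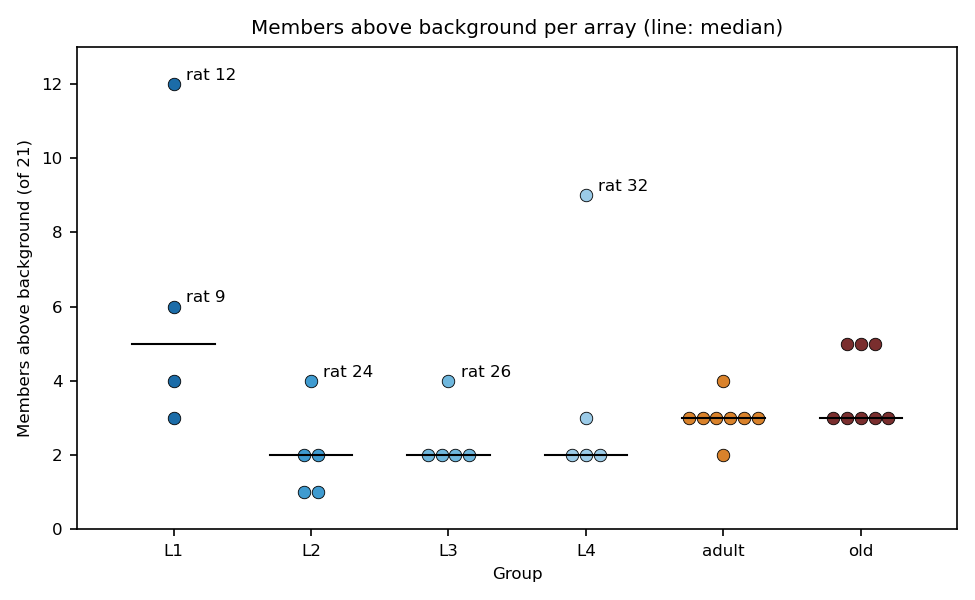
Number of the 21 members above background on each array, a point per array, with the median of each group as a line. Rat 12 (12 members) and rat 32 (9) stand above all other arrays, most of which hold 2 to 5 members.

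Trpc2, the channel of vomeronasal neurons, was above background on all 35 arrays by its brighter probe. Its levels were highest in rats 12 (5.50), 32 (5.10) and 24 (4.20), while the other pups lay between 0.93 and 3.44. Its second probe was at 1.12 in both rat 12 and rat 32 and at no more than 0.49 elsewhere. By the brighter probe Trpc2 was higher in newborn than in old rats (log2 2.18, SE 0.30, adjusted p = 9.43e-07) and in adult than in old rats (log2 1.43, SE 0.39, adjusted p = 0.00304), and newborn against adult rats was not called (log2 0.75, adjusted p = 0.028). The median was 1.73 in L1, which shared its scan day with the old arrays (median 0.55), and 2.68 to 2.84 in the other litters.

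Gnao1 was at 39.2 in rat 12 and 49.4 in rat 32, against 24.9 to 49.9 in the other 17 pups. Gnai2 was at 1.35 in rat 12 and at 3.09 in rat 32, the highest of the pups, against 1.30 to 3.06 in the others. Omp was at 35.3 and 29.3, against 21.5 to 52.8 in the others. The summed level of Trpc2, Gnao1, Gnai2 and Gng8, most of it from Gng8, did not single out these pups. It was 509 in rat 12 and 482 in rat 32, both under the pup median of 612. Muc5ac, a mucin of secretory cells of respiratory epithelium, was at 183 in rat 12, 108 in rat 32, 242 in rat 24, 124 in rat 9 and 84.0 in rat 26, and at no more than 38.8 in the other pups. These 5 pups were also the 5 with the highest levels of LOC689670. Muc5ac was singled out from the 6 respiratory markers below after its values were seen, so this match is a description only. All 6 respiratory markers measured (Foxj1, Tekt1, Dnai1, Scgb1a1, Muc5ac and Muc5b) were above background in pups, Scgb1a1 in 10 of 19 and the others in every pup. Their summed level, most of it from Foxj1, was 473 to 1441 in pups (median 693), 442 to 668 on adult and 786 to 987 on old arrays. It was 1037 in rat 12, 716 in rat 32, 1441 in rat 24, 664 in rat 9 and 1006 in rat 26. Rats 31 and 34, outside these 5 pups, were at 1050 and 1040, so the list as a whole did not follow LOC689670. Of the 6 respiratory markers, 2 were called higher in newborn than in adult rats, 2 lower in newborn than in old and 1 lower in adult than in old. Beside these counts, 37.6% of all probes tested were called higher in newborn than in adult rats. Of the same probes, 30.2% were lower in newborn than in old rats and 28.4% lower in adult than in old. Whether the samples of rats 9, 12, 24, 26 and 32 held vomeronasal tissue or other parts of the nose was not tested. In bulk RNA, fewer cells of a type and less RNA per cell cannot be told apart.

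**Figure D5:**
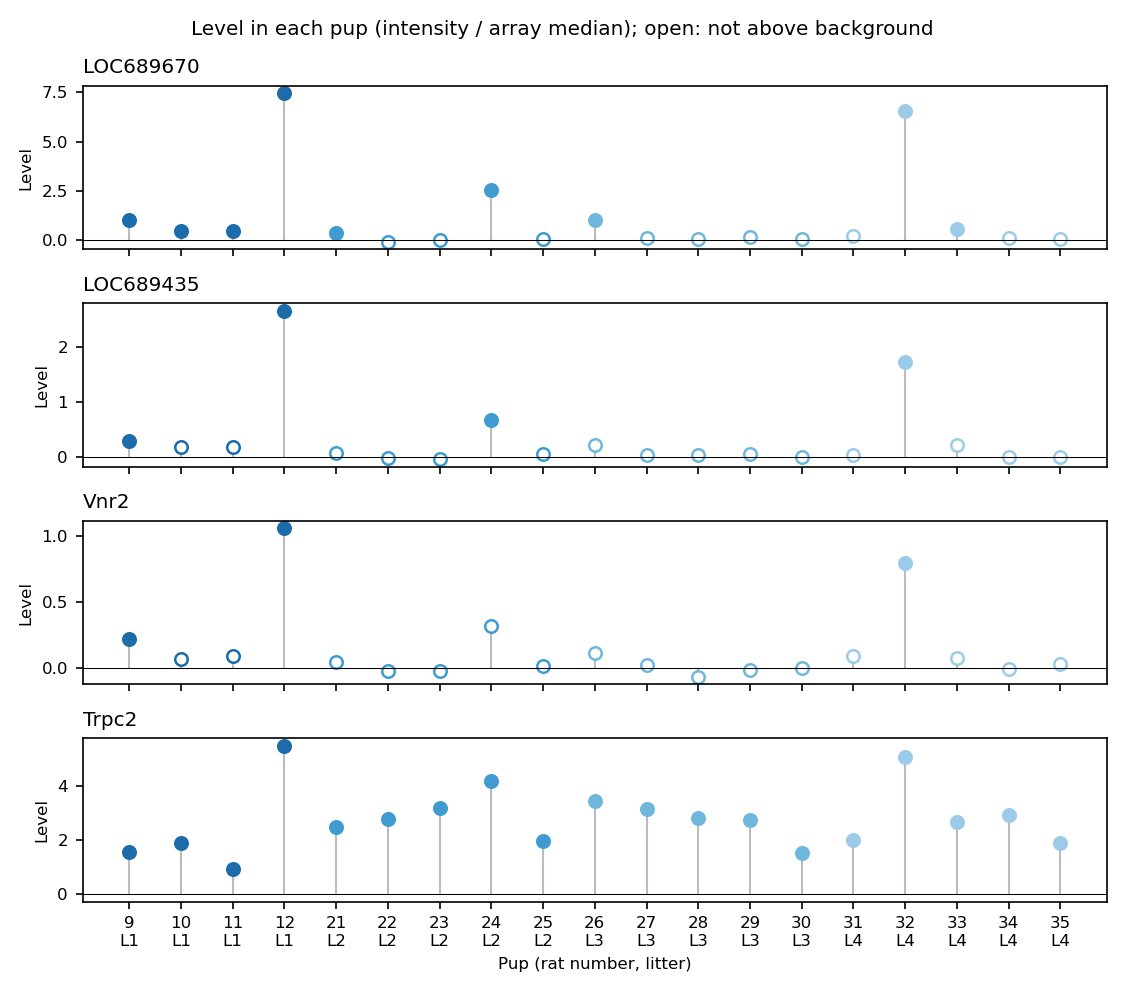
Level of the V2R genes LOC689670 and LOC689435, the V1R gene Vnr2 and the channel gene Trpc2 (brighter probe) in each of the 19 pups, by litter; open points were not above background. All 4 genes are highest in rats 12 and 32.

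Among the 4 vomeronasal neuron markers, Trpc2, Gnao1, Gnai2 and Gng8, all of which other cells of the nose also use, 1 was called higher in newborn than in adult rats (Gng8) and 3 in newborn than in old rats (Trpc2, Gnai2 and Gng8), with none called lower. Their summed level was 287 to 807 in pups, 225 to 312 on adult and 178 to 248 on old arrays, most of it from Gng8, which also marks immature olfactory neurons. Medians in L1, which shared the scan day of the old arrays, lay nearer to old than those of L2, L3 and L4. Gnai2 was at 1.40 in L1, 2.56 to 2.94 in the other litters and 0.89 in old rats. Gng8 was at 370, 509 to 619 and 182. The part of litter or scan day in the newborn against old calls was not tested. Of 11 vomeronasal transduction genes tested, 3 were higher and 2 lower in newborn than in adult rats. In newborn against old rats 5 were higher and 4 lower, and in adult against old 2 and 2. The median log2 difference of the list was 0.40, 0.02 and -0.23, beside 0.16, -0.03 and -0.17 for all probes. Of all probes tested, 37.6% were called higher and 25.9% lower in newborn than in adult rats. The shares were 28.5% and 30.2% for newborn against old, and 16.2% and 28.4% for adult against old. All list counts here and below stand beside these shares.

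Beside the vomeronasal lists, 8 of 9 genes of olfactory neuron transduction were lower in newborn than in adult rats and 9 of 9 lower than in old rats. All 6 immature neuron markers were higher in newborn than in adult and in old rats. Other chemosensory receptors were measured in the same way. Of 14 trace amine-associated receptors, which are used by the main epithelium, 7 were expressed in at least 1 group and 6 in all 6 groups. Of 3 formyl peptide receptors, some of which serve the vomeronasal organ of rodents, none was expressed in any group. Of 4 markers of sustentacular cells, which support the olfactory neurons, all were lower in newborn than in adult and in old rats, and 1 was lower in adult than in old rats. Of 3 genes of guanylyl cyclase D and atypical olfactory neurons tested, 2 were called higher in newborn than in adult rats, and 2 higher than in old rats. Of 5 genes of microvillous and solitary chemosensory cells tested, 1 was higher and 3 were lower in newborn than in adult rats, with the same counts against old rats, and 2 were lower in adult than in old rats. The 2 secretory lipocalins measured beside the members, Obp1f and Obp2b, were called in no comparison.

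The secretory protein gene LOC687446 is no receptor: its description names vomeronasal secretory protein 2, a lipocalin of nasal glands. Its probe spans 289 bases of rn3, more than its own 60. It was above background on 6 of 8 adult arrays, where the levels were 0.35 and 0.64 in rat 13 (A and B), under 0 and 0.80 in rat 14, 1.19 and 0.11 in rat 15, and 1.39 and 0.73 in rat 16. On old arrays it was above background on 2, at 2.56 on array 18B and at 102 on array 19A, while the opposite sides 18A and 19B were under 0.

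In pups it was above background in rats 24 (2.08), 26 (0.96), 32 (0.31), 33 (0.31) and 12 (0.24). None of the 3 comparisons was called (adjusted p = 0.0652 between newborn and adult, 0.577 between newborn and old, and 0.356 between adult and old rats). Array 19A also held the highest levels of the odorant-binding protein genes Obp1f (923 by its brighter probe, against 0.25 on 19B) and Obp2b (390, against 0.55). Other arrays did not follow in the same way. Array 18B had less Obp1f than 18A (1.33 against 3.02) but more Obp2b (3.75 against 1.13). Rat 25 was at 810 for Obp1f and 12.2 for Obp2b, with LOC687446 not above background. The part of nasal gland RNA in the level of LOC687446 was not tested.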

How the data were processed

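RNA of 35 samples was hybridized by the authors, with 1 dye, to arrays of 60-base probes. The deposited scanner files (Feature Extraction 9.5.1.1 for adult and 9.5.3.1 for all other arrays) give for each spot a background-subtracted intensity, the mean and background intensity, and flags coded 0 or 1. A deposited matrix of ratio values, for which the authors set negative values to 0.01 and scaled by chip and then by gene to the median, served as an alternative.

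Spots of a repeated probe were averaged without outlier spots (4189 values of 732 probes). Intensities were divided by the array median, floored at 0.01 and taken as log2, and the 2 arrays of a rat were averaged. Probes expressed in at least 1 of the 6 groups (28928) were tested with limma 3.58.1 in R 4.3.3, newborn being the mean of the 4 litters. In data simulated for adult against old rats over 28807 probes, 90 of 100 4-fold and 66 of 100 2-fold changes were recovered. The simulated noise had no floor, background, litter or scan day, so these rates do not carry over to members near the background. A call was an adjusted p under 0.01. Pups of a litter share a mother, and rats are the replicates of p values. The number of arrays limits the precision. Slides and scan days came from the files, and were fitted as random blocks (correlations 0.223 and 0.228).

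The genes named are the members expressed in at least 1 group or called in a comparison, and all other members and genes with levels in the text, apart from those of the lists, were named after their values were seen. Muc5ac was singled out from its list after its values were seen. The members and lists were chosen with earlier results of these data known. Gene lists come from general knowledge, with the brightest probe standing for a gene. They were those for vomeronasal transduction, vomeronasal neurons, olfactory neuron transduction, immature neurons, respiratory epithelium, sustentacular cells, microvillous and solitary chemosensory cells, guanylyl cyclase D and atypical neurons, secretory lipocalins, and trace amine-associated and formyl peptide receptors. Probe positions (build rn3) were taken from the scanner files, and symbols came from RefSeq. Alternatives were other scalings, background correction, floors, filters, definitions of expressed, blocks, replicates, tests and the matrix of the authors, and each rat was left out in turn.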

Additional observations from a re-analysis of the deposited data

Results flagged for a closer look

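In each group of 4 or 5 rats, the sample farthest from the others was set against its group's range, for the number of members above background and for each member above background in that group, in 58 tests. Chance singles out about 1 in 20 groups of unselected values, and 10 were singled out here. That rate does not apply to members above background in a single rat of a group, which entered because of that rat; LOC681856, V1rl1_predicted, V1rm3 and V1rb9 below are such cases. In L4, rat 32 had 9 members above background against 2 to 3 in its littermates, and in L3 rat 26 had 4 against 2. Among the 62 pheromone receptor probes outside the rule, rat 12 had 18 above background against 5 to 7 in L1, and rat 24 had 9 against 2 to 3 in L2. LOC681856 was at 0.432 in rat 12 and at 0.414 in rat 32, against at most 0.016 in the other pups of L1 and L4. V1rl1_predicted was at 0.305 in rat 32 and at the floor of 0.01 in its littermates. As geometric means of both sides, V1rm3 was at 0.099 in adult rat 16 (others at most 0.011), V1rb9 at 0.124 in adult rat 13 (others at most 0.015), and TC553353 at 3.421 in old rat 20 (others 2.738 to 2.834). No explanation was tested for these values.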

How the results depend on the processing

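The number of members expressed in at least 1 group (5), in at least 1 litter (3), in adult (2) and in old rats (3) was 11, 10, 4 and 5 with the positive and significant flag alone, and 0, 0, 0 and 0 with gene names alone. With every array of a group required it was 3, 3, 1 and 2, with at least 0.5 of the arrays 7, 6, 3 and 3. Chosen after seeing the data, the word vomeronasal in lower case alone gave 3, 2, 0 and 2, 1 level for all arrays gave 3, 3, 1 and 2, the addition of 65 other probes with a vomeronasal symbol or a pheromone receptor description gave 12, 10, 4 and 5, and leaving out rats 12 and 32 gave no change. Leaving out each rat in turn gave 4 to 5 members in at least 1 group, 3 in at least 1 litter, 1 to 2 in adult and 2 to 3 in old rats. The lower values came whenever an adult rat (13, 14, 15 or 16) or an old rat (17, 18, 19 or 20) was absent, since all 6 arrays left then had to be above background.

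The members called were 2 between newborn and adult, 3 between newborn and old, and 2 between adult and old rats. With only probes expressed in all 6 groups, where TC553353 alone could be tested, each count was 1. With normexp background correction the first count was 1, and with each rat left out it lay between 1 and 3. It was 1 without adult rat 14 and 3 without L2 rat 22, when LOC689670, which had entered the test through L1 alone, was called. Leaving out each rat gave 2 to 3 for both other counts. TC553353 kept all 3 calls and directions in every alternative, and LOC685945 those against old rats in each alternative in which it was tested, with log2 differences of -0.38 and -0.51 under normexp. The call of LOC681880 in newborn against old rats was lost in 28 of 42 alternatives (adjusted p between 5.3e-05 and 0.0989), among them slide (0.0396) and scan day (0.0635) as blocks and leaving out any old rat. Reversed, without a call on either side, were LOC681880 in newborn against adult rats with the floor set before scaling (-0.083), LOC687446 in newborn against old without old rat 19 (0.265, with -1.955 without old rat 20) and in adult against old with normexp (-0.441). The cause was not tested.

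Quantile normalization moved the share of all calls that were higher in the first group from 59.3% to 48.2% in newborn against adult and from 36.3% to 51.6% in adult against old rats, and normexp to 47.0% and 49.7%. The methods' t-test made 8308 calls in place of 12904 in adult against old rats. No paired analysis was possible because the groups share no replicate numbers. Most levels lay near the background, where the flag, not the level, carries the information.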

Other observations

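The array held 65 further probes, outside the rule, with a RefSeq symbol beginning with Vom1r or Vom2r or a description as a pheromone receptor. Of these, 35 were above background on at least 1 array and 7 were expressed in at least 1 group. All 7 were V2R genes or, in 1 case, a V2R pseudogene by symbol. LOC286983 (Vom2r40) was above background on all 35 arrays, at 5.60 in rat 12, 4.10 in rat 32 and at most 1.94 elsewhere. Casrl1 (Vom2r44) was above background on 26 arrays, at 6.73 and 5.72 in those pups and at most 2.91 elsewhere, and RGD1306812_predicted (Vom2r45) on 24, at 9.43, 7.49 and at most 4.85. LOC292498 (Vom2r-ps24), LOC500312 (Vom2r50) and RGD1562697_predicted (Vom2r6) were above background on 9, 9 and 7 arrays, all of them of pups. LOC365807 (Vom2r47) was above background on 24 arrays, including all 8 old and 2 adult arrays. Of the 65 probes, 19 were above background in rat 12, 16 in rat 32 and 14 in both, and 10 of the 14 had both levels above every other array. These genes were named after their values were seen.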
